A study of Mus musculus with 2 samples.

Results

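Endothelial cells, which line the blood vessels of a tumor, were 661 of the 23792 cell barcodes counted in tumors of a syngeneic mouse fibrosarcoma. They were chosen by their RNA counts: at least 2000 unique molecular identifiers (UMIs, each standing for 1 captured RNA molecule), at most 15% of these from mitochondrial genes, at least 4 of 7 endothelial markers with a UMI, and at least 5 marker UMIs per 10000. The markers were Pecam1, Cdh5, Cldn5, Egfl7, Emcn, Kdr and Plvap. The hosts were WT C57BL/6 mice with subcutaneous tumors, and the labels name no further allele or agent. Digestion took 45 min and used DNase I together with collagenase B, red cells were lysed, and the suspension went over magnetic columns. The eluate gave the iron-positive library and the flowthrough the iron-negative library, 1 of each, by the 10x Genomics 3' v3 protocol. No measure of iron is given, neither is the number of mice nor whether they were pooled, so no difference below has a replicate check and none was tested. Intervals are exact at 95% and cover counting error only.

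Tumor endothelium is built by sprouting: tip cells led by VEGF (vascular endothelial growth factor) signalling extend new vessels, Notch signalling between neighbours limits how many do so, and capillary, arterial and venous cells line the vessels that result. The same cells lay down basement membrane, let leukocytes adhere and leave the blood, and hold back clotting. Cells store iron in ferritin and export it through ferroportin, and break down heme with heme oxygenase. Macrophages that clear old red cells recycle much of the body's iron, and endothelial cells of the liver signal iron load through bone morphogenetic proteins.

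In the iron-positive library 650 of 9110 barcodes within the UMI and mitochondrial limits were endothelial (7.14%, interval 6.61 to 7.68), against 11 of 8787 in the iron-negative library (0.125%, interval 0.0625 to 0.224). The share was 57.0 times as high in the iron-positive library (interval 31.6 to 115). The 650 cells held 21378052 UMIs with a median of 19358.5 per cell and 4259.5 genes, and the 11 cells held 722742 UMIs with a median of 49630. All 11 had a UMI of all 7 markers, against 424 of the 650, while 48 of the 650 had 4 markers. The 48 had a median of 3464.5 UMIs and the 424 a median of 35639.5. Libraries as a whole differed in depth too, with a median of 6079 UMIs over all iron-positive and 12246.5 over all iron-negative barcodes. Just outside the rule in the iron-positive library lay 31 cells with 3 markers and enough marker UMIs, and 41 cells with 4 or more markers that held a median of 2.40 marker UMIs per 10000. The lowest of the iron-positive endothelial cells had 5.13 and the median cell 40.6. Of 85 barcodes that both libraries list, 25 were iron-positive and 1 iron-negative endothelial cells. For 23 of those 25, the iron-negative entry under the same barcode held 506 to 1097 UMIs, against 110611 to 230876 UMIs for the endothelial cell.

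The profile was compared with 3 other classes of the iron-positive library, chosen by their own markers: 7323 phagocytes, 140 perivascular cells and 209 mesenchymal cells. Levels are given as CPM, the UMIs of a gene scaled to the total of its class, from 3' counting in which gene length has little part. The 7 chosen markers, given as a description, stood at 285 CPM (Kdr, the main VEGF receptor) to 847 CPM (Plvap, the diaphragm protein of fenestrated vessels) in endothelial cells. Pecam1 had 756 CPM in endothelial cells, against 48.6 in phagocytes, 11.2 in perivascular and 9.88 in mesenchymal cells. Of 20 further endothelial markers that the choice did not use, 19 were at least 2-fold higher than in phagocytes and all 20 than in perivascular and in mesenchymal cells. Their median log2 ratios were 6.51, 5.35 and 5.48. By the rarity of Prox1, given below, the label held for blood endothelium, while the lymphatic markers together went both ways. Of 9 lymphatic markers 7 had UMIs in the 650 cells, summing to 179 CPM, and Ccl21a and Reln had none. At least 2-fold, 2 of 5 measured were higher and 1 lower than in phagocytes, and 1 of 4 higher and 2 lower than in perivascular cells. Against mesenchymal cells 2 of 4 were higher and 2 lower. Thy1, Itga9 and Mmrn1 of this list are not given singly. Flt4, a VEGF-C receptor that sprouting blood vessels also carry, had 37.1 CPM in endothelial cells, against 0.622 CPM in phagocytes. Lyve1 had 8.0 CPM in endothelial cells, against 15.95 CPM in phagocytes, and Pdpn 30.2 CPM in endothelial cells (9.07 in those of no second class, defined below), against 214 CPM in phagocytes. Prox1, the defining factor of lymphatic endothelium, had UMIs in 13 of the 661 cells. Erythrocyte RNA was in few cells, and Hbb-bs, a globin gene, had UMIs in 26 cells with 78.7% of them in 5.

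Many of the cells also carried RNA of another class. Of the 650, 218 met the perivascular rule (85 cells), the mesenchymal rule (134 cells) or held phagocyte markers above 25% of the phagocyte median (83 cells), and 4 of the 11 iron-negative cells did so. These 218 had a median of 26421.5 UMIs, against 17217.5 for the 432 that met no second class. The 13 phagocyte markers summed to 1631 CPM in the 650 cells and 772 CPM in the 432, against 21816 CPM in phagocytes. The 12 perivascular markers summed to 839 CPM and 108 CPM, against 9905 CPM in perivascular cells, and the 10 mesenchymal markers to 3231 CPM and 60.3 CPM, against 21529 CPM in mesenchymal cells. No marker of these lists was at 0 in the 650. The other classes were mixed too. Perivascular cells held 13149 CPM of the mesenchymal markers, since cells that met both rules were counted as perivascular. The phagocyte markers summed to 1899 CPM in perivascular and 2772 CPM in mesenchymal cells. Mixed cells were not left out of these classes, so ratios against them are against mixed cells. In the other direction, endothelial RNA was also counted in other cells: Gpihbp1 had 9.53 CPM in iron-positive phagocytes, against 0.335 CPM in the phagocytes of the iron-negative library, and Cldn5 had 4.02 against 0.104 CPM. Levels and list counts that moved most without these 218 cells are given below for the 432 as well. Whether they are doublets, touching cells or free RNA was not tested.

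**Figure D1:**
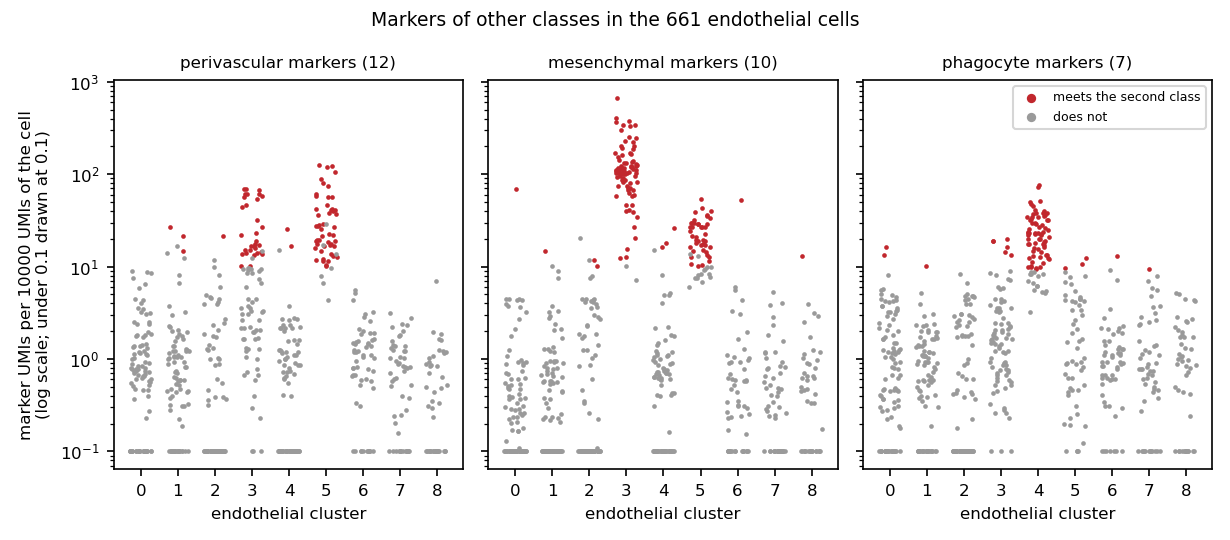
Each point is 1 of the 661 endothelial cells, placed by its cluster on the x axis and by its marker UMIs of perivascular, mesenchymal or phagocyte genes per 10000 UMIs of the cell on a log y axis; red points meet the rule of that second class. The red points gather in clusters 3, 4 and 5, where 85 of 86, 70 of 85 and 54 of 57 cells meet a second class.

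Of genes with at least 100 CPM in endothelial cells, Gpihbp1 (chr15:75596628-75599481, plus strand, GRCm38) was the farthest above all 3 other classes. Its protein holds lipoprotein lipase on the capillary surface. It had 1220 CPM in the 650 iron-positive and 1141.5 CPM in the 11 iron-negative endothelial cells, against 9.53 CPM in phagocytes, 5.30 in perivascular and 4.94 in mesenchymal cells. That is 128 times the level in phagocytes, with a log2 ratio of 7.0 (interval 6.90 to 7.10). The gene had a UMI in 92.0% of endothelial cells, against 10.6% of phagocytes, at median depths of 19358.5 and 10944 UMIs. With each cell thinned to 2000 UMIs, it had one in 72.0% of endothelial cells, against 2.36% of phagocytes. Ctla2a (chr13:60934155-60936625, minus strand), a cysteine protease inhibitor, was the most abundant of the set, with 3845 CPM in iron-positive and 3228 CPM in iron-negative endothelial cells, against 47.1 CPM in phagocytes, 33.0 in perivascular and 39.9 in mesenchymal cells.

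Smallest log2 ratios over the 3 classes ran from 5.51 to 7.0 in the 25 genes of this set, and none of them fell under 4.43 in the alternatives tried. Receptors and signalling proteins among them were Dll4, the Notch ligand of tip cells (192 CPM in endothelial cells, against 2.53 CPM in phagocytes), Ptprb, the phosphatase that restrains Tie2 (233 CPM against 2.02), Robo4, a guidance receptor that steadies the barrier (110 CPM against 1.19), Adgrl4, an adhesion receptor of sprouting vessels (207 CPM against 2.19), and Ramp2, which makes the adrenomedullin receptor (581 CPM against 4.60). Adhesion and surface proteins were Podxl, a sialomucin (182 CPM against 1.68), Icam2 (327 CPM against 6.55) and Pcdh17, a protocadherin (132 CPM against 1.24). All of these are proteins at the cell surface, where vessel cells meet blood or each other. Matrix proteins were Mmrn2 (231 CPM against 1.59) and Vwa1 (233 CPM against 1.83). Rasip1, which vessel lumens need (232 CPM against 3.1), and the transcription factor Sox7 (170 CPM against 2.27) belonged to it too. The globin Hbb-bs was in the set by its smallest log2 ratio of 6.78, with 126 CPM in endothelial cells, against 1.14 CPM in phagocytes, but it had UMIs in 4.0% of the iron-positive endothelial cells. Depp1 had 260 CPM in endothelial cells and no UMI in perivascular cells, which allows up to 0.883 CPM from 3 counts. Chga, the granule protein of neuroendocrine cells, had 328 CPM in endothelial cells, against 3.39 CPM in phagocytes, and its UMIs were in 44.6% of iron-positive endothelial cells. In the 432 cells of no second class the smallest log2 ratios of these genes ran from 5.66 for Ramp2 to 7.18 for Gpihbp1.

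**Figure D2:**
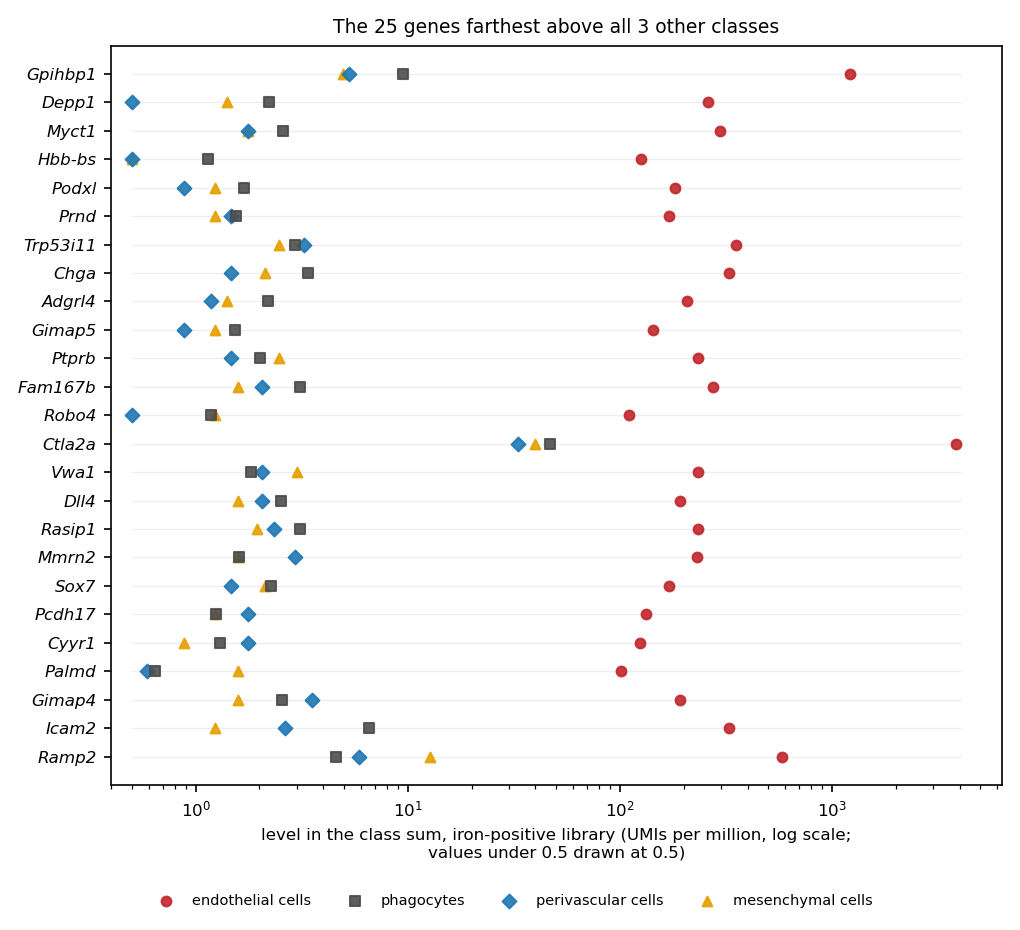
Levels in CPM (log scale) of the 25 genes with the highest smallest ratio over the other classes, 1 gene a line, summed over the 650 endothelial cells, 7323 phagocytes, 140 perivascular and 209 mesenchymal cells of the iron-positive library. Endothelial levels lie between 101 (Palmd) and 3845 (Ctla2a), right of all other points.

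ETS factors such as Erg and Fli1 drive many endothelial genes in mice and bind sequences with a GGAA core, so the promoters of the named genes are shown where one form of that site, AGGAAG or its other strand CTTCCT, stands in capitals. RefSeq windows (GRCm38.p6) were at hand for 20 of the 32 named genes (the 25 and the 7 markers), and 9 of the 20 (45.0%) hold the motif on either strand within 250 bases before the start, against 7879 of 27025 genes (29.2%). No other motif was searched. The 100 bases before the start are printed for 3 genes that hold the motif there, and windows without it are not printed. They are Robo4 at chr9:37401872-37401971, Adgrl4 at chr3:151437782-151437881 and Egfl7 at chr2:26580983-26581082, all plus strand. Egfl7, of the 7 chosen markers, has 3 listed starts, and its window lies inside the gene by GENCODE (chr2:26580014-26593120). The Robo4 window runs past the GENCODE gene start at chr9:37401897. A match is a description of these letters and shows no binding.
Robo4: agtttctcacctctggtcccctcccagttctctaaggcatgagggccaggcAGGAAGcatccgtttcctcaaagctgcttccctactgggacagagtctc
Adgrl4: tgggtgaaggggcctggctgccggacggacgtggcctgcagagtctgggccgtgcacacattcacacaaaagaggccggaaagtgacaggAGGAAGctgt
Egfl7: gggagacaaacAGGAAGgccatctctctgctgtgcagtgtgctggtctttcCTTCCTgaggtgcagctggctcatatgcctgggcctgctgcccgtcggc

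Of genes at least 2-fold above every other class, Tmsb10, Ctla2a and Ly6a were the most abundant. Ctla2a, with 3845 CPM, is described above. Tmsb10, an actin-binding peptide, had 5215 CPM in iron-positive and 4637 CPM in iron-negative endothelial cells, against 770 CPM in phagocytes, 2519 in perivascular and 2594 in mesenchymal cells. Fabp4, the fatty acid carrier of capillaries, had 2776 CPM in iron-positive and 1559 CPM in iron-negative endothelial cells, against 35.3 CPM in phagocytes, 1218 in perivascular and 23.7 in mesenchymal cells. Perivascular cells thus shared much of the Fabp4 level, while mesenchymal cells had little. Igfbp3, an insulin-like growth factor binder, had 1778 CPM in endothelial cells, against 22.1 CPM in phagocytes, and Tm4sf1, a membrane protein of sprouting endothelium, 1311 against 12.6 CPM. The interferon-inducible members Ly6a, Ly6c1, Bst2 and Ubd had 3060.1, 1526, 1298 and 1219.6 CPM in endothelial cells, against 886, 14.4, 483 and 13.9 CPM in phagocytes. Cav1 and Cavin3 of caveolae had 801 and 729 CPM in endothelial cells, against 13.8 and 6.47 CPM in phagocytes.

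Across all 8725 genes with at least 10 CPM in endothelial cells or phagocytes, 17.9% were at least 2-fold higher and 19.6% at least 2-fold lower in endothelial cells. Against perivascular cells the shares were 10.1% higher and 12.9% lower, and against mesenchymal cells 11.3% and 13.9%. Median log2 ratios over all genes were -0.03, -0.07 and -0.08, and against these shares and medians the lists below are to be read. In the 432 cells of no second class the shares against phagocytes were 17.5% higher and 21.5% lower. Lists are named for what their members do, and the counts give measured members at least 2-fold higher or lower. A member can be measured through its level in endothelial cells alone, and members under 10 CPM in both classes are left out.

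Receptors of the VEGF and angiopoietin pathways were high in endothelial cells, and of their ligands Pgf, Angpt2 and Apln were high while Vegfa was low. Of 16 measured members, Kdr of the chosen markers among them, 12 were higher and 1 lower than in phagocytes (median log2 ratio 5.62), and of 18 measured against mesenchymal cells 11 were higher and 4 lower (4.06). The decoy receptor Flt1 had 517 CPM in iron-positive and 501 CPM in iron-negative endothelial cells, against 10.3 CPM in phagocytes, 164 in perivascular and 32.8 in mesenchymal cells. Tek, the angiopoietin receptor, and its relative Tie1 had 38.9 and 166 CPM in endothelial cells. Of the ligands, Pgf, Angpt2 and Apln had 350, 206 and 308 CPM in endothelial cells, against 11.9, 6.55 and 3.59 CPM in phagocytes. Vegfa, the main growth signal, ran the other way, with 35.4 CPM in endothelial cells (17.5 in the 432), against 373 CPM in phagocytes, 69.2 in perivascular and 207 in mesenchymal cells. Angpt1, which quiets vessels, had 2.01 CPM in endothelial cells. Nrp1, a VEGF co-receptor, differed by less than 2-fold between the classes, with 158 CPM in endothelial cells, against 102 in phagocytes, 149 in perivascular and 80.0 in mesenchymal cells.

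Notch4 was highest in endothelial cells. Notch3 is among the 12 markers that chose the perivascular cells and helped choose the 432, so its contrast follows in part from that choice. Notch4 had 101 CPM in endothelial cells, against 2.59 CPM in phagocytes, 1.47 in perivascular and 0.883 in mesenchymal cells, whereas Notch3 had 21.3 CPM in all 650 and 0.625 CPM in the 432 of no second class, against 289 CPM in perivascular cells. Notch1 had 122 CPM in endothelial cells. Of measured pathway members 8 of 11 were higher and 2 lower than in phagocytes (median 3.1), and 6 of 13 higher and 5 lower than in perivascular cells (-0.16). Notch3 is among those 5. The TGF-beta and BMP list held 8 of 14 members higher and 2 lower than in phagocytes, with Eng, the endoglin co-receptor, at 323 CPM in endothelial cells against 23.3 CPM. Its ligand Bmp2 is taken up with the iron genes. Of the endothelial transcription factors 16 of 22 were higher and 2 lower than in phagocytes, with Sox17 at 83.9, Erg at 81.3 and Sox18 at 77.6 CPM in endothelial cells. Klf4, induced by flow, was 1 of the 2 lower ones, with 338 CPM in endothelial cells, against 869 CPM in phagocytes, 381 in perivascular and 738 in mesenchymal cells, and Ets2 was the other, with 149 CPM in endothelial cells against 320.0 CPM in phagocytes.

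Junction genes and caveolae were mostly higher in endothelial cells. Of 16 junction and barrier genes measured against phagocytes 14 were higher and 0 lower (median 3.62), and of 17 measured against perivascular cells 10 were higher and 3 lower (1.49). Esam, an adhesion molecule of tight junctions, had 465 CPM in endothelial cells, against 6.27 CPM in phagocytes, 126 in perivascular and 2.82 in mesenchymal cells. Gja4, a connexin of arterial endothelium, had 73.5 CPM in endothelial cells, and perivascular cells had more, at 172 CPM. Of 9 caveolae and vesicle genes 6 were higher than in phagocytes and 1 lower (5.43), and 6 were higher and 0 lower than in perivascular cells (1.42).

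Basement membrane genes were high against phagocytes and went both ways against the other stromal classes. Against phagocytes 20 of 23 genes were higher and 0 lower (median 5.90), against perivascular cells 4 were higher and 4 lower (-0.02), and against mesenchymal cells 7 were higher and 5 lower (0.45). The type IV collagen chain Col4a1 had 2165 CPM in iron-positive and 2856 CPM in iron-negative endothelial cells, against 21.3 CPM in phagocytes, 2080 in perivascular and 245 in mesenchymal cells. Sparc, a collagen-binding protein, had 5370 CPM in endothelial cells, against 49.3 CPM in phagocytes and 7246 CPM in perivascular cells. Bgn had 402 CPM in all 650 endothelial cells and 20.6 CPM in the 432, against 2552 CPM in mesenchymal cells, and Lox had 37.6 and 0.782 CPM, so the level of both lay mostly in cells that also met another class. Integrins were 8 of 12 higher and 2 lower than in phagocytes, with Itga6, a laminin receptor, at 200 CPM and Itgb3 at 105 CPM in endothelial cells.

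Vasoactive and guidance genes were high as a group against phagocytes and went both ways against the other stromal classes. Of 13 vasoactive genes 9 were higher and 2 lower than in phagocytes (median 4.32). Against perivascular cells 8 of 15 were higher and 6 lower (1.01), and against mesenchymal cells 10 of 15 were higher and 5 lower (2.58). These lower members are 40% and 33.3% of those measured, against 12.9% and 13.9% of all genes. Ece1, which cuts endothelin to its active form, had 384 CPM in endothelial cells, against 19.3 CPM in phagocytes, 120 in perivascular and 49.6 in mesenchymal cells, and its product's precursor Edn1 had 94.9 CPM against 2.89 CPM in phagocytes. Of the endothelin receptors, Ednra had 9.12 CPM in the 650 and 0.235 CPM in the 432, against 144 CPM in perivascular cells, and Ednrb 57.9 CPM (31.2 in the 432), against 49.0 CPM in phagocytes and 444 in perivascular cells. Nos3, the endothelial nitric oxide synthase, had 80.9 CPM in endothelial cells, against 1.5 CPM in phagocytes. All 17 measured guidance genes, of 23 listed, were higher than in phagocytes (5.64). Each of the 17 had at least 10 CPM in endothelial cells, so this count follows in part from that limit. Against perivascular cells 12 of 21 guidance genes were higher and 6 lower (1.49). Against mesenchymal cells 12 of 22 were higher and 7 lower (1.52). S1pr1, the sphingosine-1-phosphate receptor, had 346 CPM in endothelial cells, against 36.5 CPM in phagocytes, 10.0 in perivascular and 9.18 in mesenchymal cells. Plxnd1, a semaphorin receptor, had 312 CPM, and Efnb2, the arterial ephrin, 87.9 CPM in endothelial cells.

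**Figure D3:**
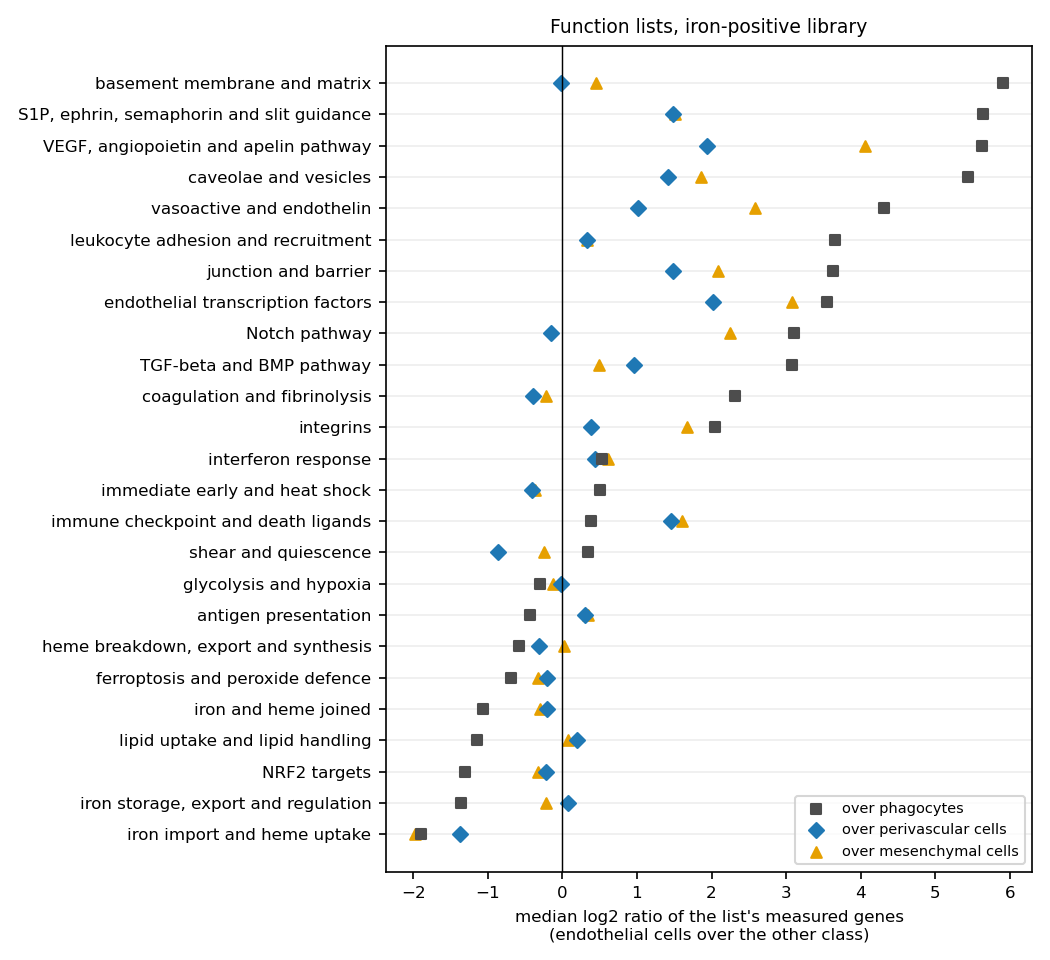
Median log2 ratio (x axis) of the measured genes of 24 function lists and of the 3 iron lists joined, endothelial cells over phagocytes, perivascular and mesenchymal cells of the iron-positive library. Over phagocytes the medians run from -1.89 (iron import and heme uptake) to 5.90 (basement membrane and matrix), while over perivascular cells they stay between -1.38 and 2.02.

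Chemokines and adhesion molecules that bring leukocytes to the vessel wall were abundant. Cxcl9, a T-cell chemokine, had 3133 CPM in iron-positive and 3871 CPM in iron-negative endothelial cells, against 1164 CPM in phagocytes, 4089 in perivascular and 2266 in mesenchymal cells, with UMIs in 631 of the 661 cells. Of 21 adhesion and recruitment genes 15 were higher and 3 lower than in phagocytes (3.66), and of 22 measured against perivascular cells 9 were higher and 7 lower (0.33). Cd34 and Cd200 had 378 and 320 CPM in endothelial cells, against 4.13 and 5.20 CPM in phagocytes. Cxcl1, a neutrophil chemokine, had 268 CPM in endothelial cells (152 in the 432), against 2016 CPM in perivascular and 1280 in mesenchymal cells. The interferon list had 10 of 23 members higher and 1 lower than in phagocytes (0.54), and 6 higher and 0 lower than in perivascular cells (0.44).

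Measured antigen presentation genes lay within 2-fold of the other stromal classes. The list summed to 12922 CPM in endothelial cells, against 23987 CPM in phagocytes, 9524 in perivascular and 8933 in mesenchymal cells. Class I was high, with H2-K1 at 3050 CPM in endothelial cells, against 2504 CPM in phagocytes, 1699 in perivascular and 1607 in mesenchymal cells. Class II followed the phagocytes, and its invariant chain Cd74 had 1031 CPM in endothelial cells, against 6576 CPM in phagocytes, 631 in perivascular and 939 in mesenchymal cells. Of 16 genes 0 were higher and 7 lower than in phagocytes, and 0 passed 2-fold in either direction against the other 2 classes. Among the checkpoint and death ligands 7 of 16 were higher and 5 lower than in phagocytes. Lgals9 had 415 CPM in endothelial cells, against 147 CPM in phagocytes, 108 in perivascular and 61.3 in mesenchymal cells. Cd274, the ligand PD-L1, had 116 CPM in endothelial cells, against 233 CPM in phagocytes, 54.5 in perivascular and 53.5 in mesenchymal cells.

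Against phagocytes clotting genes were mostly higher, and lipid, NRF2 and peroxide defence genes were lower more often than the background of 19.6%. Against perivascular cells 6 of 16 lipid genes were higher and 3 lower, and against mesenchymal cells 7 of 17 were higher and 4 lower. NRF2 genes lower than in these 2 classes were 1 of 17 (5.88%) and 2 of 17 (11.8%). Peroxide defence genes lower than in them were 5 of 18 in each (27.8%). The backgrounds for lower were 12.9% and 13.9%. Of 16 clotting and fibrinolysis genes 12 were higher and 0 lower than in phagocytes, with Vwf at 86.3 CPM in endothelial cells (9 of 14 higher in the 432), and against perivascular cells 4 of 17 were higher and 6 lower. Lipid genes were 5 of 18 higher and 10 lower than in phagocytes (-1.14): Mgll had 180 CPM in endothelial cells against 1.30 CPM, and Apoe 647 CPM (351 in the 432) against 8093 CPM. Glycolysis genes were 3 of 25 higher and 6 lower (-0.29), with Gapdh at 1617 CPM in endothelial cells, against 1656 in phagocytes, 1536 in perivascular and 1645 in mesenchymal cells. Pfkfb3, the glycolytic activator that sprouting endothelium uses, had 154 CPM in endothelial cells, against 77.9 CPM in phagocytes, 27.7 in perivascular and 28.4 in mesenchymal cells. Gapdh thus stood at a like level in all classes, while Pfkfb3 was highest in endothelial cells. NRF2 target genes, which answer oxidative stress, were 1 of 17 higher and 11 lower than in phagocytes (-1.30), with Prdx1 at 927 CPM in endothelial cells against 2287 CPM. Ferroptosis and peroxide defence genes were 2 of 19 higher and 8 lower (-0.68), and 0 of 17 higher and 9 lower in the 432 (-1.03). The 2 higher ones, Gpx3 and Sod3, had 130 and 34.9 CPM in the 650 and 8.21 and 0.547 CPM in the 432, against 9.18 and 0.995 CPM in phagocytes. Slc7a11, the cystine carrier, had 10.9 CPM in endothelial cells against 166 CPM. Flow and quiescence genes were 2 of 10 higher and 2 lower (0.35), and immediate early and heat shock genes 7 of 17 higher and 0 lower than in phagocytes (0.51) but 0 higher and 2 lower than in perivascular cells (-0.41).

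Of 37 measured iron and heme genes, 19 were at least 2-fold lower in endothelial cells than in phagocytes of the same iron-positive library. Most of the measured list lay within 2-fold of the other stromal cells. What held any of these cells on the column was not tested. The list holds 61 genes, of which 3 were at least 2-fold higher than in phagocytes, and the median log2 ratio was -1.06. Against perivascular cells 1 of 37 was higher and 8 lower (-0.20, interval -0.54 to 0.11, which includes 0; 0.03 with thinned cells and 0.10 over genes of at least 50 CPM), and against mesenchymal cells 3 of 39 were higher and 12 lower (-0.30). These lower members are 51.4%, 21.6% and 30.8% of those measured, against 19.6%, 12.9% and 13.9% of all genes. In the 432 cells of no second class, 20 of 37 were lower than in phagocytes (-1.23), 11 of 37 than in perivascular cells (-0.29) and 16 of 39 than in mesenchymal cells (-0.56).

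For storage, the ferritin heavy chain Fth1 (chr19:9980598-9985098, plus strand) had 3865 CPM in iron-positive endothelial cells (interval 3839 to 3891; 3172 in the 432) and 2334 CPM in iron-negative ones, against 23834 CPM in phagocytes, 3721 in perivascular and 4932 in mesenchymal cells. Phagocytes thus held 6.17 times the endothelial level. The light chain Ftl1 had 1995 CPM in iron-positive and 1467 CPM in iron-negative endothelial cells, against 9016 CPM in phagocytes, 1589 in perivascular and 1959 in mesenchymal cells. Both ferritin genes have near-identical copies elsewhere in the genome, so the split of their reads is uncertain. The exporter ferroportin, Slc40a1, lay just under the limit of 10 CPM and was named after its value was seen. It had 9.12 CPM in endothelial cells (5.32 in the 432), against 103 CPM in phagocytes, with UMIs in 75 of 661 cells and 45.1% of them in 5 cells. The iron chaperones Pcbp1 and Pcbp2 were level, at 322 and 354 CPM in endothelial cells, against 262 and 425 CPM in phagocytes. Ncoa4, the receptor that sends ferritin to degradation, had 18.0 CPM in endothelial cells, against 46.0 CPM in phagocytes, and the iron sensor Fbxl5 38.0 against 141 CPM. Of these regulators, those that release or sense iron were lower in endothelial cells. Ireb2 and Aco1, the iron regulatory proteins, had 20.3 and 13.5 CPM in endothelial cells, against 35.9 and 23.4 CPM in phagocytes.

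Most import genes were lower in endothelial cells than in phagocytes and mesenchymal cells. The transferrin receptor Tfrc had 14.4 CPM in iron-positive and 18.0 CPM in iron-negative endothelial cells, against 16.7 CPM in phagocytes, 37.7 in perivascular and 36.7 in mesenchymal cells. The endothelial level was close to that of phagocytes and under that of both stromal classes. Trf, transferrin itself, had 23.5 CPM (15.5 in the 432), against 326 CPM in phagocytes. The heme-hemopexin receptor Lrp1 had 48.9 CPM in the 650 and 9.69 in the 432, against 245 CPM in phagocytes and 322 in mesenchymal cells. Both were lower in endothelial cells than in phagocytes. Slc39a14, a carrier of free iron, had 24.3 CPM in endothelial cells (15.7 in the 432), against 23.4 CPM in phagocytes and 108 in mesenchymal cells, and Slc11a2 had 14.9 against 25.5 CPM in phagocytes. Slc11a1 of phagosomes had 12.2 CPM (6.33 in the 432), against 148 CPM in phagocytes, and Hfe 25.7 against 81.7 CPM. Of 9 import genes measured 0 were higher and 6 lower than in phagocytes (-1.89, and -3.63 in the 432). Against mesenchymal cells 9 of 12 were lower (-1.97), and 11 of 12 in the 432 (-2.93).

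Heme genes were the mixed group. Heme oxygenase Hmox1 (chr8:75093621-75100589, plus strand) had 182 CPM in iron-positive endothelial cells (126 in the 432) and 87.2 CPM in iron-negative ones, against 1580 CPM in phagocytes, 119 in perivascular and 179 in mesenchymal cells, so phagocytes held 8.70 times the endothelial level. Its constitutive partner Hmox2 had 101 CPM in endothelial cells, against 92.1 CPM in phagocytes, 57.1 in perivascular and 40.8 in mesenchymal cells. Of the enzymes after it, Blvra had 36.9 CPM in endothelial cells, against 83.2 CPM in phagocytes, and Blvrb 51.7 (35.9 in the 432) against 364 CPM. The step that splits heme and the steps after it were thus all lower than in phagocytes, apart from Hmox2. The heme-regulated repressor Bach1 had 122 CPM in endothelial cells against 183 CPM. Abcg2, which exports porphyrins and many drugs, was higher in endothelial cells: 62.8 CPM in iron-positive and 37.4 CPM in iron-negative endothelial cells, against 7.72 CPM in phagocytes, 40.6 in perivascular and 15.2 in mesenchymal cells. With Bmp2 and Alad it was 1 of the 3 measured iron and heme genes at least 2-fold above phagocytes. Of the synthesis enzymes, Alad had 21.7 CPM in endothelial cells against 9.27 CPM in phagocytes, Urod 27.9 against 17.3 CPM, Alas1 22 against 39.4 CPM and Fech 15.8 against 25.8 CPM. The heme carrier Slc48a1 had 30.0 CPM in endothelial cells against 166 CPM, and Atp13a2 17.5 against 151 CPM. The mitochondrial iron carriers Slc25a37 and Slc25a28 had 17.8 and 24.9 CPM in endothelial cells, against 29.6 and 74.7 CPM in phagocytes.

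Bmp2 (chr2:133552159-133562885, plus strand), a ligand of the pathway by which liver endothelium raises hepcidin, was the measured iron-list gene farthest above phagocytes. It had 384 CPM in iron-positive endothelial cells (515 in the 432) and 212 CPM in iron-negative ones, against 5.36 CPM in phagocytes, 21.5 in perivascular and 9.88 in mesenchymal cells. That is 71.7 times the phagocyte level, with a log2 ratio of 6.16 (interval 6.03 to 6.30). UMIs were in 475 of the 661 cells, and 10.9% of them in 5 cells.

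**Figure D4:**
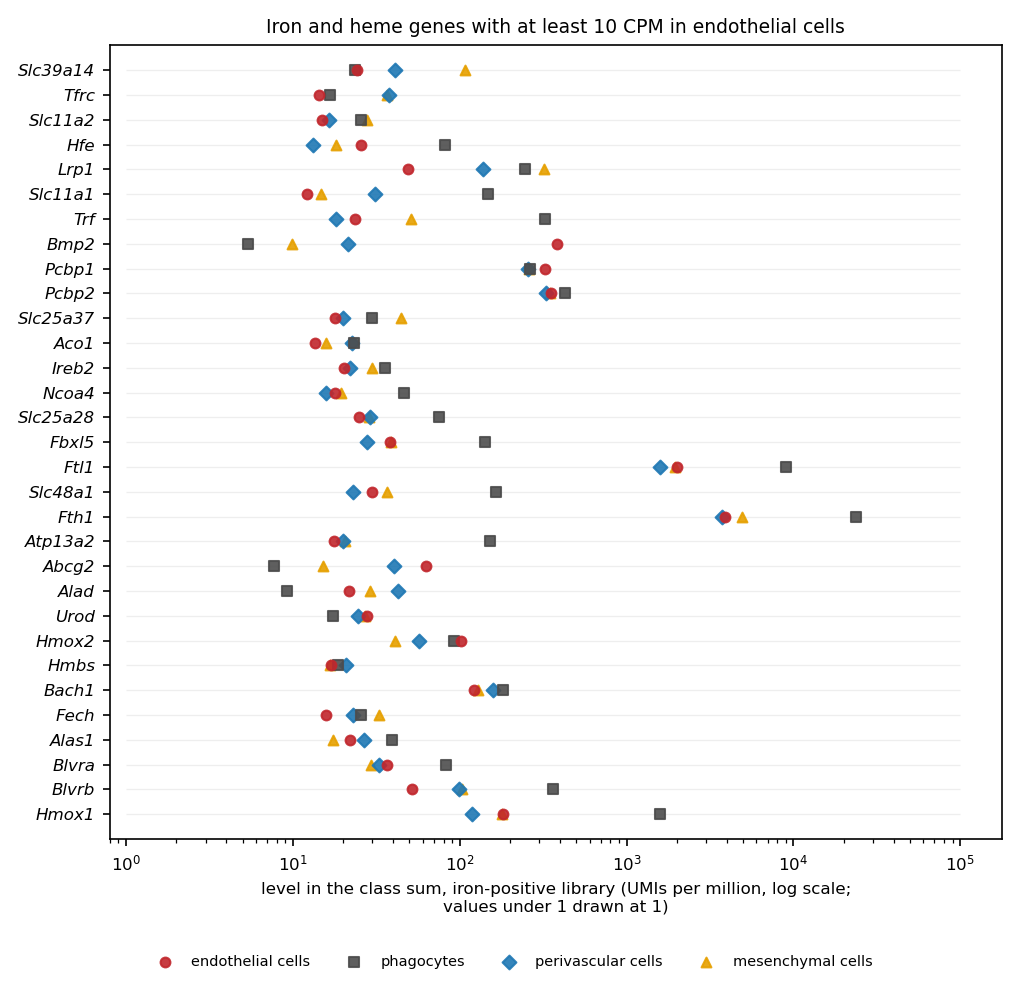
Levels in CPM (log scale) of the 31 iron and heme genes with at least 10 CPM in endothelial cells, 1 gene a line, in the same 4 classes of the iron-positive library. For Fth1, Ftl1, Hmox1 and Trf the phagocyte point lies far right of the endothelial one, and for Bmp2 (384 against 5.36 CPM) and Abcg2 (62.8 against 7.72 CPM) far left.

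The 661 cells fell into 9 clusters when grouped without the genes of any list, with 48 to 97 cells each. List levels in them are descriptions of cells already grouped by their RNA, and shares at least 2-fold higher over all genes ran from 0.557% (cluster 2) to 13.3% (cluster 4). Clusters 3, 4 and 5 were the mixed ones and stay unnamed. Cluster 3 was led by the matrix genes Cilp, Lox and Lum, and over all genes 5.4% were higher in it and 0.753% lower. Phagocyte genes such as F13a1 and Ly86 were among the leaders of cluster 4, with 13.3% higher and 4.15% lower. Cluster 5 was led by the perivascular genes Des, Notch3 and Rgs5, with 3.92% higher and 1.79% lower. The highest iron gene levels lay in cluster 4. In it 15 of 36 iron and heme genes were higher and 0 lower than in the other endothelial cells (median 0.69), and Fth1 had 10689 CPM there, against 3285 CPM in the other endothelial cells. Its Hmox1 level was 808 CPM, against 130 CPM. In the other 8 clusters the iron median ran from -0.42 to 0.14, and the phagocyte markers of cluster 4 had a median log2 ratio of 3.54. Their part in its iron gene levels was not tested.

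Cluster 0, with 97 cells, was cycling-like: 13 of 18 cycling genes were at least 2-fold higher than in the other endothelial cells (median 1.48, background 2.67%). Birc5, of the chromosome passenger complex, had 232 CPM in it, against 62.2 CPM in the other endothelial cells, and the mitotic kinase Cdk1 174 against 49.6 CPM. Top2a and Mki67 had 239 and 169 CPM, against 79.7 and 61.4 CPM. Its first gene by ratio was Gzma, a granzyme, with 210 CPM against 36.1 CPM, but 71.9% of all Gzma UMIs lay in 5 cells. Of the 27 Gzma cells among the 439 of no second class in both libraries, 11 also had Nkg7, a killer-cell gene.

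Cluster 6, with 57 cells, was tip-like: 8 of 18 tip and angiogenic genes were at least 2-fold higher (median 0.97, background 2.01%). Esm1 (chr13:113209659-113218098, plus strand), the endocan of tip cells, had 354 CPM in it, against 113 CPM in the other endothelial cells, Prnd 436 against 153, Pgf 803 against 305, and Apln 568 against 287 CPM. Adm, adrenomedullin, had 272 against 112 CPM, Cxcr4, the tip cell chemokine receptor, 312 against 134 CPM, and Egln3, which hypoxia induces, 91.9 against 26.9 CPM. In the same cells 13 of 21 leukocyte adhesion genes were at least 2-fold lower and 1 higher (-1.2, background 7.27% lower), and Selp had 2.1 CPM, against 70.6 CPM in the other endothelial cells.

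Venous genes were high in clusters 1 and 8 as grouped here, but this depended on the grouping. Without cells of a second class the venous median was 0.41 in the match of cluster 1 and 1.02 in that of cluster 8, and at other resolutions, components or members it went down to 0.40 and 0.42. With list genes kept, it was -0.21 in the match of cluster 1, where 25% of the cells in either cluster were in both. In cluster 1, with 89 cells, 7 of 11 venous genes were higher (1.31, background 2.2% higher and 6.39% lower), and P-selectin, Selp, had 333 CPM, against 32.3 CPM in the other endothelial cells. Ackr1, the chemokine receptor of venules, had 87.8 against 5.38 CPM, Vwf 235 against 70.2 CPM and the water channel Aqp1 796 against 175 CPM. Arterial genes were also higher in it (0.90), and it gets no name. In cluster 8, with 48 cells, 8 of 11 venous genes (1.53), 15 of 23 interferon genes (1.18, against 0 of 23 in cluster 1) and 11 of 22 adhesion genes (1.04) were higher, against a background of 4.29% higher. Vcam1 had 870 CPM in it, against 232 CPM in the other endothelial cells, Sele 80.1 against 11.2 CPM and Ifit2 292 against 39.8 CPM. Its leaders were Hdc, the histamine-making enzyme (113 against 10.0 CPM), the chemokine Ccl4 (260 against 25.5 CPM) and Car4 of capillaries (597 against 84.4 CPM), while 0 of 18 tip genes were higher and 9 lower (-1.0, background 8.52% lower).

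Cluster 7, with 55 cells, had 4 of 18 tip genes higher and 1 lower (0.35), and 4 of 23 interferon genes higher and 0 lower (0.73, background 1.78% higher and 7.02% lower), and stays unnamed. The closest cluster without shared barcodes had an interferon median of -0.053, with 31.9% of cells in common. Globins were among the leaders of cluster 7, and Hba-a2 had 126 CPM in it, against 24.2 CPM in the other endothelial cells, Hba-a1 128 against 30.1 CPM and Hbb-bs 350 against 97.4 CPM. The part of this red cell RNA was not tested. Apln had 863 CPM in cluster 7, against 251 CPM in the other endothelial cells, and Bmp2 1142 against 296 CPM. Ido1, which breaks down tryptophan, had 146 against 28.2 CPM, Gbp2 1815 against 512 CPM, Cd274 321 against 92.2 CPM and Cxcl9 7299 against 2707 CPM. Capillary genes were 0 of 12 higher and 8 lower (-1.43). Cluster 2, with 87 cells, had a median of 5309 UMIs and was led by Stmn2 (165 against 25.5 CPM), Rbp7, Nts (742 against 171 CPM) and Gja4 (165 against 68.1 CPM), and it stays unnamed. The 11 iron-negative cells lay in clusters 0, 1, 3, 5, 6 and 8, with at most 3 in any.

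Among the 439 cells of no second class in both libraries, Esm1 cells had Selp less often than all cells, and the gap depended on depth. With each cell thinned to 2000 UMIs, 88 had Esm1, 40 had Selp and 2 had both, so 2.27% of Esm1 cells had Selp, against 9.11% of all. As counted, 206 had Esm1, 100 had Selp and 30 both (14.6%, against 22.8% of all). For Apln the gap was smaller as counted, with Selp in 51 of 253 Apln cells (20.2%, against 22.8% of all). In thinned cells 5 of 137 Apln cells had Selp (3.65%, against 9.11% of all). Esm1 and Apln went together: of the 88 thinned Esm1 cells 49 had Apln (55.7%, against 31.2% of all). Esm1 and Car4 were together less often, with 3 of the 88 holding both (3.41%, against 17.1% of all). As counted the gap was smaller, with Car4 in 67 of the 206 Esm1 cells (32.5%, against 40.8% of all). These pairs were picked after the clusters were seen and are a description.

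**Figure D5:**
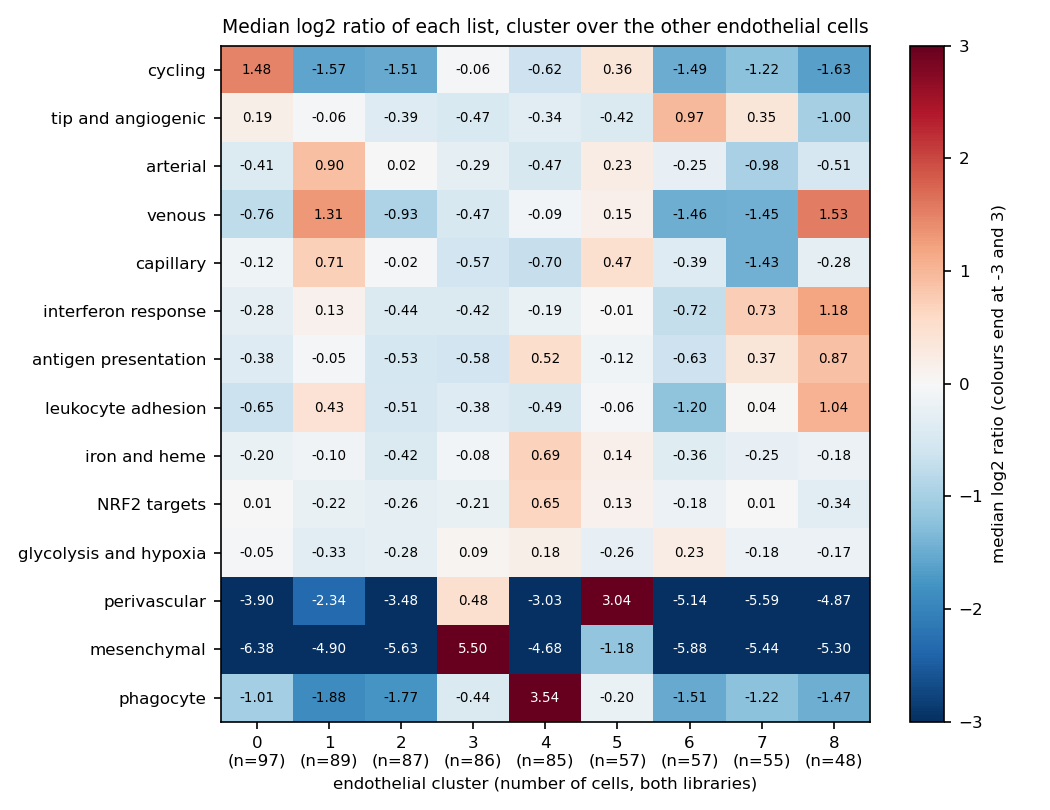
Median log2 ratio (colour and number) of each list's measured genes in each of 9 endothelial clusters over the other endothelial cells, both libraries, with cell numbers under the columns. Cycling genes peak in cluster 0 (1.48), tip genes in cluster 6 (0.97), venous genes in clusters 1 (1.31) and 8 (1.53), and iron genes in cluster 4 (0.69), whose phagocyte markers stand at 3.54.

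Between the 650 iron-positive and the 11 iron-negative endothelial cells few genes differed by 2-fold: of 3253 genes with at least 50 CPM in either, 29 (0.891%) were higher and 53 (1.63%) lower. Gpihbp1, which the choice did not use, had 1220 CPM in iron-positive and 1141.5 CPM in iron-negative cells. Fth1 was higher in iron-positive cells, at 3865 against 2334 CPM, a log2 ratio of 0.73 (interval 0.66 to 0.80), and 0.39 among cells of no second class. Hmox1 had 182 against 87.2 CPM (1.05, interval 0.70 to 1.44), from 63 UMIs in 9 of the 11 iron-negative cells, and 0.10 among cells of no second class. The ferritin difference kept its direction without the mixed cells while that of Hmox1 was close to 0. Slc40a1 had 195 UMIs in the iron-positive cells (9.12 CPM) and 0 in the iron-negative cells, which allows up to 4.15 CPM. Bmp2 had 384 against 212 CPM (0.86), and Abcg2 62.8 against 37.4 CPM (0.72).

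The genes farthest apart between these cells included many of other cell types. Higher in iron-positive cells were Nts, neurotensin (204 against 36.0 CPM, log2 2.48), the platelet factor and phagocyte gene Pf4 (229 against 74.7 CPM, 1.60) and the metallothionein Mt1 (454 against 194 CPM, 1.22). Lower were Hist1h2ap (155 against 773 CPM, -2.32), the smooth muscle gene Tagln (120 against 506 CPM, -2.08) and Timp1 (173 against 674 CPM, -1.96). Among cells of no second class Hist1h2ap stood at 1.53, Tagln at 1.70 and Timp1 at 0.15, all turned in sign. Tagln is among the 12 perivascular markers that chose the cells of a second class, so its turn follows in part from that choice. It had UMIs in 2 of the 11 iron-negative cells. Esm1 was lower in iron-positive cells both ways, at 126 against 343 CPM (-1.45, and -1.88 in cells of no second class), and Prnd, also a tip-like gene, at 171 against 345 CPM (-1.01). Of the 11 iron-negative cells 3 lay in the tip-like cluster, against 54 of the 650 iron-positive cells.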

How the data were processed

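Single-cell RNA was counted in 2 libraries. Per the file headers and values, the authors deposited unnormalized UMI counts for each gene in each barcode, from lists already filtered. The submitters' processing notes name Cell Ranger 3.1.0 and mm10, the matrix headers version 5.0.0; the annotation release was not given in the sources at hand. Coordinates came from GENCODE vM21 by gene ID (32158 of 32285 matched), promoters from RefSeq. Depth was 129921053 UMIs in the iron-positive and 132796517 in the iron-negative library.

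Phagocytes had at least 4 of 7 markers (Csf1r, Cd68, Adgre1, Fcgr1, Mrc1, Ms4a7, Ptprc). Perivascular cells (12 markers) and mesenchymal cells (10 collagen and matrix markers, which tumor cells may share) had at least 4, and at least 10 marker UMIs per 10000. UMIs were summed per class and scaled to CPM. Log2 ratios used each count plus 0.5, over genes with at least 10 CPM in either class. With 1 library per group no test was made. No doublet caller was run, and cells meeting a second class were marked instead.

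Clusters used 1000 variable genes outside all lists, 15 components, 15 neighbours and Leiden resolution 0.8 (scanpy 1.11.5, leidenalg 0.10.2), with Python 3.11.15, numpy 2.4.6, pandas 2.3.3, scipy 1.17.1 and matplotlib 3.10.9. The code was tested on simulated data.

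Members and gene lists were chosen with earlier results of these data known. Named genes are the 7 markers, the 25 with the highest smallest ratio among genes of at least 100 CPM, the 15 most abundant at least 2-fold above all classes, up to 8 per list, iron and heme genes with at least 10 CPM, and 6 leaders per cluster, of which some are not reported here. Slc40a1, and further genes named by cluster, in marker pairs or between the libraries, were chosen after their values were seen. Alternatives changed limits, scaling, depth and clustering; those without mixed cells or shared barcodes were added after seeing the data.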

Additional observations from a re-analysis of the deposited data

Results flagged for a closer look

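Barcodes outside the comparisons also carried the endothelial markers. In the iron-positive library 104 barcodes under 2000 UMIs met the marker rule, against 3 in the iron-negative library. A further 40 barcodes above 15% mitochondrial UMIs met it, against 0 in the iron-negative library. They came to notice because these barcodes enter none of the values above, and whether they are damaged endothelial cells or droplets with free RNA was not tested.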

How the results depend on the processing

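The endothelial share ratio kept its size in every alternative run (log2 5.68 to 5.92, against 5.83). Counts of 2-fold genes followed the filter. At 50 CPM or more, and then with no filter, those higher than in phagocytes were 698 and 5831 (1565 as reported) and those lower 834 and 3733 (1709); against perivascular cells 411 and 1956 higher (873) and 409 and 5305 lower (1120, and 1763 with thinned cells); against mesenchymal cells 488 and 2282 higher (989) and 445 and 4618 lower (1221). The iron median over phagocytes was -2.18 and -0.59 in those filters. Over mesenchymal cells it was -0.60 without members with many phagocyte UMIs. Over perivascular cells it stayed between -0.29 and 0.10.

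Clusters moved more, and an alternative's cluster is the 1 that shares the most cells. The venous median of cluster 1 was 0.40 at resolution 1.2, -0.21 with list genes kept (25% of cells shared), 1.46 with 10 components, 0.54 without members with many phagocyte UMIs and 0.41 without cells of a second class. That of cluster 8 was 0.54 at resolution 0.4, 1.17 with list genes, 0.53 with 10 components, 0.42 without phagocyte-rich members and 1.02 without a second class. The interferon median of cluster 8 was 1.04 with list genes and 1.08 without a second class. For cluster 7 it was 0.83 at resolution 1.2. In 5 other settings the closest cluster shares 20.0% to 32.4% of cells, so these are largely not its values: 1.2 at resolution 0.4, 1.19 with 10 components, 1.22 without phagocyte-rich members and 1.08 without a second class, all clusters that also match cluster 8, and -0.053 without shared barcodes. The cycling median was 2.04 without a second class and 1.70 without shared barcodes, and the tip median 0.74 with list genes and 0.79 without a second class. Iron-positive endothelial cells had 52 genes 2-fold higher without a second class and 44 without shared barcodes, against 29. The causes were not tested. No paired analysis was possible because each group has 1 library. Depth limits the 11 iron-negative cells most.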
